A study of Mus musculus with 12 samples.

Results

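Mouse embryonic fibroblasts in which the RNA-binding protein IMP2 had been lowered by siRNA were compared with fibroblasts given a control siRNA, both after stimulation with interleukin-17 (IL-17). The libraries were taken by their treatment label alone, and no measured value entered the choice. They comprised 3 siIMP2_IL17 and 3 siControl_IL17 libraries, 6 of the 12 in the series. All cells were wild-type C57BL/6 fibroblasts derived at embryonic days 12.5 to 13.5. They were transfected with control or IMP2 siRNA, received fresh medium 24 hours later and were then kept with 200 ng/mL IL-17 for 8 hours. The 6 unstimulated libraries (3 siControl and 3 siIMP2) had the same transfection without the cytokine. They entered the fit to share the estimate of spread and are compared separately at the end. Total RNA was sequenced in bulk, so fewer cells of a type and less RNA per cell cannot be told apart. The knockdown was transient and partial. The labels name neither the sequence nor the number of the siRNAs, and they do not say whether the libraries of a group were independent cultures. The p-values therefore reflect variation among these libraries alone, and this variation may be technical.

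IMP2, encoded by Igf2bp2, belongs to the insulin-like growth factor 2 mRNA-binding protein family. These proteins bind the untranslated and coding parts of many mRNAs, among them mRNAs carrying N6-methyladenosine (m6A), and affect their stability, transport and translation. IL-17 acts on fibroblasts and other stromal and epithelial cells through a receptor of IL-17RA and IL-17RC, which recruits the adaptor Act1 (Traf3ip2) and TRAF proteins. The pathway activates NF-kB and the C/EBP transcription factors and also lengthens the life of short-lived inflammatory mRNAs. Its well-known outputs are neutrophil-attracting chemokines, IL-6, lipocalin 2 and G-CSF. The title of the study places IMP2 upstream of a C/EBP axis in this response, and the contrast described here asks what the earlier knockdown changed in cells then given the cytokine.

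The 6 libraries held 34462068 to 44433699 gene counts. Library titles begin with NA or RB160, and each group held 2 NA libraries (replicates 1 and 2) and 1 RB160 library (replicate 3). The first principal component of the 6 libraries (67.4% of the variance) separated the title sets. Both it and the next (19.6%) separated the siRNAs within each set. The title set was therefore a term in the model. Levels are given as CPM, counts scaled to a common library size, in the order replicates 1, 2 and 3, and 1 CPM corresponded to 31.9 to 50.9 reads. Changes are log2 fold changes of siIMP2_IL17 over siControl_IL17 with their standard error, tested by edgeR (quasi-likelihood) over 13702 genes, with p-values adjusted by the Benjamini-Hochberg method. A gene is said to have risen or fallen only where its adjusted p was below 0.05. The change within the NA set (2 against 2) and within the RB160 set (1 against 1) is given where it bears on a result.

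The siRNA target was lower in all knockdown libraries. Igf2bp2 (chr16:22059009-22163299, minus strand, mm10) was at 166, 156 and 139 CPM in siControl_IL17 and at 24.3, 18.4 and 28.2 CPM in siIMP2_IL17. Every knockdown library lay below every control library, and 15.4% of the control level remained. The log2 fold change was -2.70 ± 0.15 (edgeR adjusted p = 2.04e-07). Its relatives moved less. Igf2bp3 fell from 55.7 ± 9.83 to 41.6 ± 3.03 CPM (SD, n = 3), by 0.40 ± 0.08 (adjusted p = 0.00166), and Igf2bp1 was at 46.1 and 47.3 CPM and did not pass (0.04 ± 0.06, adjusted p = 0.628).

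Of the 13702 genes, 4581 (33.4%) were called, 2289 higher (16.7%) and 2292 lower (16.7%). Most changes were small: 68.0% of the called genes changed by less than 1.5-fold. A change of 2-fold or more was seen in 276 genes that rose (2.01%) and 406 that fell (2.96%). The sign was the same in NA and RB160 for 4550 called genes (99.3%), a share that the calling favours since the set was a term of the fit, and for 72.5% of all genes tested. All 3 knockdown libraries lay above all 3 controls for 9.24% of the genes and below them for 9.58%. Within each title set taken separately, the knockdown libraries lay above the controls for 27.5% and below them for 26.7%. These shares are the background against which the counts of each gene group are to be read. Without the title-set term the number called fell to 327, 133 higher and 194 lower, all of them also called with it.

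**Figure D1:**
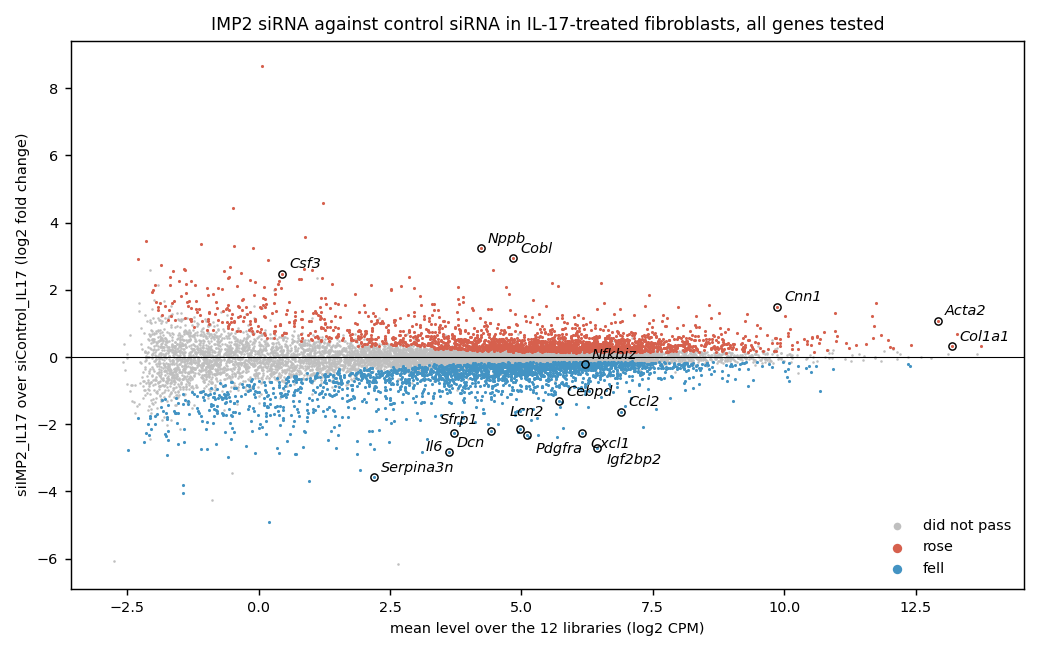
Log2 fold change of siIMP2_IL17 over siControl_IL17 (vertical axis) against the mean level over the 12 libraries in log2 CPM (horizontal axis), 1 point per gene tested. Genes that rose are red, genes that fell are blue and those that did not pass are grey. Circled genes are named in the text, among them Nppb at 3.24 and Dcn at -2.83.

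Genes listed as IL-17 targets were mostly lower after the knockdown. Of 25 tested IL-17 target genes 15 fell and 2 rose, with a median log2 fold change of -1.31, against -0.01 over all genes tested. The median was -1.36 in the NA set and -0.79 in the RB160 set. For 13 of the 25 all knockdown libraries lay below all controls, and for 1 they lay above. The fall took in chemokines, cytokines, acute-phase genes and the C/EBP factors themselves, while Csf3 and Tnfaip3 rose. Nfkbiz, Zc3h12a, Lif, Ptgs2, Ccl20, Saa3, Mmp3 and Mmp13 did not pass. In unstimulated cells 12 of the 25 fell and 3 rose with IMP2 siRNA, with a median of -1.47. Whether the listed genes answered IL-17 in these libraries was not tested.

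The receptor and its adaptors were not lower as a group. Of 16 tested genes 5 rose and 1 fell, and their median was 0.09. Without siControl_IL17 replicate 2 the number that rose was 2, and without siIMP2_IL17 replicate 3 it was 3. Il17rc, which encodes a subunit of the receptor, was at 24.8, 22.3 and 27.2 CPM in the control libraries and at 22.2, 25.2 and 21.9 CPM in the knockdown libraries, overlapping ranges (-0.10 ± 0.09, adjusted p = 0.436). Traf3ip2, encoding the adaptor Act1, was at 34.9, 28.3 and 24.3 CPM in the controls and at 37.3, 35.0 and 29.3 CPM after knockdown and did not pass (0.22 ± 0.08, adjusted p = 0.0501). It passed, as higher, in 9 of 22 alternatives, DESeq2 and limma-voom among them, with adjusted p from 0.0211 to 0.682 over all of them. Il17ra rose by 0.19 ± 0.06 (adjusted p = 0.0339), a call lost without siControl_IL17 replicate 2, siIMP2_IL17 replicate 2 or siIMP2_IL17 replicate 3, with adjusted p up to 0.155. Il17rd, a family member reported to restrain the receptor's signal, fell by 0.65 ± 0.13 (adjusted p = 0.00207). Traf5 (0.48) and Tab2 (0.39), which encode signalling adaptors downstream of the receptor, rose. Traf6, the ubiquitin ligase that carries the signal to NF-kB, did not pass (0.13 ± 0.06, adjusted p = 0.145).

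Within the C/EBP family the inflammatory members fell. Cebpd was at 129, 126 and 62.9 CPM in siControl_IL17 and at 46.8, 36.2 and 37.2 CPM in siIMP2_IL17. Every knockdown library was lower than every control library, and the RB160 control was lower than the NA controls. Cebpd fell by 1.31 ± 0.25 (adjusted p = 0.00136), and the change was -1.62 within NA and -0.76 within RB160. Cebpb was at 32.5, 34.1 and 35.0 CPM in the controls and at 26.3, 22.7 and 20.3 CPM after knockdown, again without overlap. Its fall was smaller, 0.57 ± 0.12 (adjusted p = 0.00305). Cebpg, encoding a C/EBP protein without a transactivation domain, rose by 0.34 ± 0.08 (adjusted p = 0.00571), as did Ddit3, which encodes the stress-induced member CHOP (0.60 ± 0.09, adjusted p = 0.000387). Cebpa, at 1.38 and 0.912 CPM, was called lower (-0.62 ± 0.22, adjusted p = 0.0472), but that call was lost in 10 of the 12 fits that left out 1 library, with adjusted p up to 0.137.

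In the NF-kB group 7 of 14 tested genes fell and 4 rose (median -0.21). Bcl3, an IkB-like protein that partners the NF-kB subunits in the nucleus, was at 38.9, 39.3 and 37.7 CPM in the control libraries and at 18.5, 15.3 and 16.5 CPM in the knockdown libraries. The knockdown values lay below the controls in all libraries, a fall of 1.20 ± 0.15 (adjusted p = 5.98e-05). The subunit genes Nfkb1 (-0.49), Nfkb2 (-0.44), Relb (-0.49) and Rel (-0.45) fell by lesser amounts, and so did the inhibitor gene Nfkbie (-0.79). Ikbkb (0.20) and Ikbkg (0.28), subunits of the kinase that frees NF-kB, rose slightly. Nfkbiz, encoding IkB-zeta, a cofactor that acts with C/EBP proteins at IL-17 targets, was at 148, 148 and 94.8 CPM in the controls and at 113, 113 and 102 CPM after knockdown. These ranges overlapped, and the gene did not pass (-0.22 ± 0.11, adjusted p = 0.154, NA -0.39, RB160 0.10). It was called lower in the NA libraries alone, without siControl replicate 3 and without siIMP2_IL17 replicate 3.

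Genes that switch NF-kB signalling off did not move together. Of 11 tested, 3 fell and 2 rose (median -0.02). Tnfaip3, encoding the deubiquitinase A20, rose from 75.3, 66.1 and 23.3 to 116, 129 and 57.2 CPM, by 0.96 ± 0.10 (adjusted p = 1.23e-05). Tnip3, an A20-binding protein, was near 1.23 CPM in the controls and fell by 1.65 ± 0.36 (adjusted p = 0.00348). Zc3h12a, encoding the ribonuclease Regnase-1 that degrades inflammatory mRNAs, was at 52.9, 49.2 and 35.9 CPM in the controls and at 54.2, 58.1 and 49.6 CPM after knockdown and did not pass (0.26 ± 0.18, adjusted p = 0.288).

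Chemokine mRNAs that IL-17 raises were among the genes that fell most. Of 7 tested CXC chemokines 4 fell and 0 rose (median -1.21). Cxcl1, a neutrophil attractant, was at 201, 189 and 220.1 CPM with control siRNA and at 43.0, 29.0 and 53.9 CPM with IMP2 siRNA. The groups were far apart in both title sets, with a log2 fold change of -2.27 ± 0.20 (adjusted p = 4.94e-06). Cxcl5, which attracts the same cells, fell from 1.01, 0.905 and 1.24 to 0.152, 0 and 0.0663 CPM, with 132 counts in the 3 controls and 8 in the 3 knockdown libraries (-3.81 ± 0.59, adjusted p = 0.000659). Cxcl14 fell by 1.99 ± 0.32 and Cx3cl1, a membrane-bound chemokine, by 1.21 ± 0.20. Cxcl12, which retains CXCR4-bearing cells, averaged 632 and 689.8 CPM and did not pass (0.32 ± 0.17, adjusted p = 0.184). Cxcl2 was too low to be tested, with 42 counts in the 3 controls and 12 in the 3 knockdown libraries.

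Of 8 CC chemokines 3 fell and 0 rose. Ccl2, a monocyte attractant, was at 325, 314 and 184 CPM in siControl_IL17 and at 82.1, 63.0 and 112 CPM in siIMP2_IL17. All knockdown libraries were below all controls, and the gap was narrower in the RB160 set (-2.14 in NA, -0.72 in RB160). Ccl2 fell by 1.63 ± 0.30 (adjusted p = 0.00122), and its neighbour in function, Ccl7, by 1.48 ± 0.28 (adjusted p = 0.00143). Ccl20, which attracts CCR6-bearing cells, was at 1.46, 1.31 and 0.197 CPM in the controls and at 2.73, 2.23 and 0.486 CPM after knockdown and did not pass (0.95 ± 0.41, adjusted p = 0.0959). Csf3, encoding G-CSF, went the other way: it was at 0.504, 0.496 and 0.393 CPM in the controls and at 2.86, 3.35 and 1.79 CPM after knockdown, a rise of 2.47 ± 0.31 (adjusted p = 7.03e-05). Among the other colony-stimulating genes Il34 rose by 0.75 ± 0.11.

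The IL-6 system fell at several levels, with 8 of 13 tested genes lower and 1 higher (median -0.49). Il6 was at 40.6, 34.8 and 31.8 CPM with control siRNA and at 8.33, 5.30 and 8.22 CPM with IMP2 siRNA. No library of one group reached the range of the other, and the log2 fold change was -2.25 ± 0.37 (adjusted p = 0.000569). The receptor genes Il6ra (-0.49), Il6st (-0.78), which encodes the shared signalling chain gp130, Osmr (-0.96) and Lifr (-0.98) fell. Stat3, the transcription factor these receptors activate, fell from 128 ± 28.5 to 64.4 ± 12.1 CPM (SD, n = 3), by 0.98 ± 0.06 (adjusted p = 4.66e-07). Socs3, which STAT3 induces to restrain the pathway, fell by 1.26 ± 0.10 (adjusted p = 2.5e-06). Lif itself did not pass (-0.42 ± 0.26, adjusted p = 0.23).

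Among IL-1 family genes 5 of 7 fell and 2 rose. Il1r1, the IL-1 receptor, fell by 1.61 ± 0.14 (adjusted p = 5.52e-06), and Il1rl1, the IL-33 receptor, by 2.07 ± 0.40. Il33, encoding a nuclear alarm cytokine, was at 7.96, 7.50 and 6.78 CPM in the controls and at 1.31, 0.846 and 1.66 CPM after knockdown, with no overlap (-2.50 ± 0.30, adjusted p = 4.51e-05). Il1rn, the receptor antagonist, fell by 2.38 ± 0.25. In contrast, Il1a rose from 1.19, 1.08 and 0.236 to 4.19, 4.33 and 1.21 CPM, by 2.06 ± 0.40 (adjusted p = 0.00172), and the accessory chain gene Il1rap rose by 0.56 ± 0.12.

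Acute-phase and antimicrobial genes fell in 7 of 8 cases with 0 rising (median -1.41), and all 8 were lower within both title sets. Lcn2, encoding the iron-trapping protein lipocalin 2, was at 120.5, 88.9 and 36.8 CPM in the control libraries and at 20.5, 14.6 and 12.9 CPM in the knockdown libraries. The controls spread widely and the groups did not overlap. Lcn2 fell by 2.14 ± 0.65 (adjusted p = 0.0219). This call was lost by DESeq2, in the robust fit, and without siControl_IL17 replicate 1 or 3 or siIMP2_IL17 replicate 1 or 2, with adjusted p up to 0.122. C3, the central complement component, fell by 1.64 ± 0.22 (adjusted p = 0.000112), Ptx3, a soluble pattern recognition protein, by 1.31 ± 0.15 (adjusted p = 3.08e-05), and the complement protease genes C1s1 and C1ra by 0.86 ± 0.12 and 0.71 ± 0.09. Steap4, a metalloreductase, was at 0.319, 0.321 and 6.39 CPM in the controls and at 0.0304, 0.0313 and 0.751 CPM after knockdown, so the RB160 libraries held most of the signal (-2.85 ± 0.66, adjusted p = 0.0053, and 0.308 without siControl_IL17 replicate 3). Saa3 was lower in each set but did not pass (-1.09 ± 0.66, adjusted p = 0.223). Without siControl_IL17 replicate 3, 4 genes of this list fell.

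Counts in smaller groups tied to inflammation are to be read beside the 16.7% of all tested genes that fell. Of 10 genes of arginine and nitric oxide metabolism 3 fell and 1 rose: Slc7a2, the cytokine-inducible arginine transporter, fell by 0.92 ± 0.13 (adjusted p = 0.000161), while Slc7a1, the constitutive one, rose by 0.50 ± 0.08. In that list 1 gene fell without siControl_IL17 replicate 1, siIMP2 replicate 1 or siIMP2_IL17 replicate 1 or 2. Of 10 prostaglandin genes 2 fell and 0 rose (median 0.09), so the share that fell was near that over all genes. Ptges, the inducible prostaglandin E synthase, was at -0.48 ± 0.09, and Ptgs2, encoding cyclooxygenase 2, did not pass (0.50 ± 0.23, adjusted p = 0.109). Without siIMP2_IL17 replicate 3, 4 prostaglandin genes fell, and 1 fell without any other single IL-17 library but siControl_IL17 replicate 3. Of 18 interferon-stimulated genes 6 fell and 0 rose (median -0.60). The transcription factor gene Irf1 fell by 0.68 ± 0.06 (adjusted p = 7.58e-06).

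**Figure D2:**
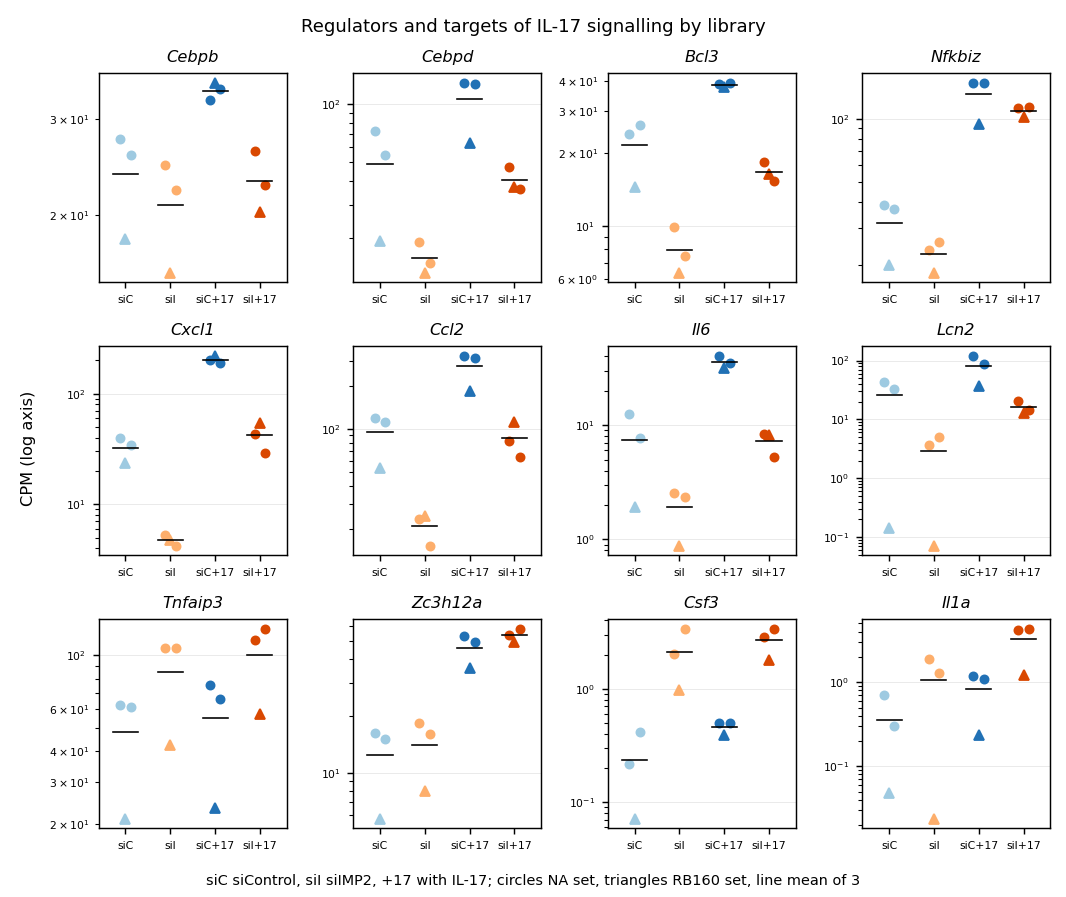
Level of 12 regulators and targets of IL-17 signalling in each of the 12 libraries in CPM on a log axis. Circles are NA libraries, triangles RB160 libraries and lines means of 3. Cxcl1, Ccl2, Il6 and Cebpd lie lower with IMP2 siRNA in both conditions, while Csf3 and Tnfaip3 lie higher.

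The mean levels under knockdown and IL-17 can be set beside those without cytokine, as a description without a test. Il6 averaged 7.28 CPM in siIMP2_IL17 and 7.35 CPM in unstimulated siControl, and Cebpb averaged 23.1 and 23.8 CPM. Cxcl1 averaged 42.0 and 32.3 CPM, and Ccl2 85.7 and 94.8 CPM. By the same measure Nfkbiz averaged 109 against 31.9 CPM and Zc3h12a 54.0 against 12.4 CPM. Unstimulated cells with IMP2 siRNA averaged 1.92 CPM for Il6, 20.9 for Cebpb, 4.74 for Cxcl1, 20.9 for Ccl2, 22.6 for Nfkbiz and 14.1 for Zc3h12a. Il6, Cebpb and Ccl2 in siIMP2_IL17 thus lay close to unstimulated siControl, and the means of all 6 genes lay above those in unstimulated siIMP2.

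The short sequence TTGCNNAA, a core recognised by C/EBP proteins, was searched on both strands of the RefSeq promoter windows (250 bases before to 50 after each gene's start, GRCm38.p6). It was present in 10.8% of all windows, in 9.82% of those of tested genes, in 10.7% of those of all genes that fell (185 of 1724), in 19.4% of those of genes that fell at least 2-fold (55 of 283) and in 8 of 17 IL-17 target genes that had a window. The NF-kB site, searched the same way, was present in 6.47% of the windows of tested genes and in 8.12% of those of genes that fell (140 of 1724). It was present in 12.4% of those that fell at least 2-fold (35 of 283) and in 6 of the 17 IL-17 targets. Both motifs thus had higher shares in the last 2 sets than in tested genes. Among genes that rose at least 2-fold the shares were 10.9% for TTGCNNAA (21 of 192) and 9.4% for the NF-kB site (18 of 192), so the NF-kB share was higher in both directions. A match is a description of the sequence and not a binding site. The windows of 5 IL-17 targets or acute-phase genes are shown because their transcripts fell together, with the matching letters in capitals and the gene's own strand given 5′ to 3′. In Il6 and Ptx3 the match is on the opposite strand. They come from Il6 at chr5:30012975-30013004 (plus), Lcn2 at chr2:32387937-32387966 (minus), Steap4 at chr5:7960374-7960403 (plus), Ptx3 at chr3:66219819-66219848 (plus) and C3 at chr17:57228163-57228192 (minus).
Il6: acgacgtcacaTTGTGCAAtcttaataagg
Lcn2: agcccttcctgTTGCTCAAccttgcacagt
Steap4: cacagctcctcTTGCGAAAtcaagcgggcc
Ptx3: gtggtttaacaTTGTGCAAcctcttcagct
C3: aggaaactatgTTGCGAAAttttgggcagt

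Contractile genes moved in the other direction. Of 22 tested genes of the contractile apparatus and actin cytoskeleton 21 rose and 0 fell, with a median of 0.58, and for all 22 the knockdown libraries lay above the controls within both title sets. For 7 of them they lay above all controls regardless of set. Acta2, the smooth muscle actin of activated fibroblasts, was at 6166, 5259 and 2642 CPM in the controls and at 11702, 12071 and 5812 CPM after knockdown. The RB160 libraries were lower in both groups, and within each set the knockdown libraries were the higher. Acta2 rose by 1.08 ± 0.09 (adjusted p = 2.37e-06). Cnn1, the smooth muscle calponin, went from 641, 599 and 161 to 1697, 1752 and 465 CPM, a rise of 1.49 ± 0.07 (adjusted p = 9.01e-08) of similar size in NA (1.47) and RB160 (1.53).

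The same direction held for Actg2, the enteric smooth muscle actin (1.28 ± 0.07), Myl9, a myosin light chain (1.06 ± 0.08), Tagln, encoding transgelin (0.93 ± 0.07), Lmod1, an actin nucleator of smooth muscle (1.53 ± 0.13), and Synpo2, an actin-bundling protein (1.42 ± 0.22). Myh11, the smooth muscle myosin heavy chain, stayed low, from 0.376 to 2.40 CPM, but rose by 2.61 ± 0.40 (adjusted p = 0.000295). Widely expressed members rose less: Flna, filamin A, by 0.67 ± 0.06, Vcl, vinculin, by 0.59 ± 0.09, and Tpm1, a tropomyosin, by 0.51 ± 0.08. Myh10, a nonmuscle myosin heavy chain, was the 1 gene that did not pass (0.03 ± 0.06, adjusted p = 0.704).

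Regulators and targets of the actin-controlled factors SRF and MRTF and of the mechanosensitive YAP-TEAD pair moved the same way, with 15 of 20 rising and 0 falling (median 0.41). Ctgf (1.60 ± 0.18), Ankrd1 (1.31 ± 0.08) and Cyr61 (0.83 ± 0.07), widely used YAP-TEAD targets, rose. Fhl1, a LIM-domain protein of muscle, was at 757, 741 and 313 CPM in the controls and at 1664, 1803 and 752 CPM after knockdown, without overlap within either set (1.23 ± 0.06, adjusted p = 9.01e-08). Srf itself rose by 0.66 ± 0.08 (adjusted p = 4.37e-05), Mkl1, which encodes MRTF-A, by 0.30 ± 0.06, and Yap1 by 0.42 ± 0.05. Mkl2, encoding MRTF-B (-0.08 ± 0.06), and Tead2 (-0.15 ± 0.08) did not pass.

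The CArG box, the SRF recognition motif, was found in 1.63% of all promoter windows and in 1.60% of those of tested genes. The share was 3.59% among genes that rose (63 of 1755) and 0.986% among genes that fell (17 of 1724). Of the 19 contractile genes with a window 3 held one, and of 17 genes of the SRF and YAP-TEAD list 3 did. These 6 genes carry the motif close to the start, some of them more than once. For 5 of them 1 match is shown with the motif in capitals: Cnn2 at chr10:79988534-79988563 (plus), Myl9 at chr2:156775293-156775322 (plus), Vcl at chr14:20929161-20929190 (plus), Srf at chr17:46556225-46556254 (minus) and Fhl1 at chrX:56779571-56779600 (plus).
Cnn2: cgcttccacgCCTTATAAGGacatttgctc
Myl9: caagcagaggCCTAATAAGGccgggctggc
Vcl: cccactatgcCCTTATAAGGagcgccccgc
Srf: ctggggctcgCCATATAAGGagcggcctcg
Fhl1: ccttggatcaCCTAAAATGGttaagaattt
All 5 of these genes rose, but the choice fixed this. Only called genes were shown, and 0 called genes of either list fell. The motif GGAATG, the TEAD core, was present on either strand in 14.5% of the windows of tested genes, in 9 of 19 contractile genes and in 11 of 17 genes of the SRF and YAP-TEAD list.

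Of 5 tested genes of natriuretic peptides and their receptors 3 rose and 1 fell, and of 3 tested skeletal muscle markers 2 rose and 0 fell. Nppb, encoding the natriuretic peptide BNP, was at 4.49, 4.32 and 2.14 CPM in the controls and at 36.0, 45.3 and 21.1 CPM after knockdown. The lowest knockdown library exceeded the highest control several-fold, and the rise of 3.24 ± 0.14 (adjusted p = 7.96e-08) was alike in NA (3.19) and RB160 (3.27). Nppa, the atrial peptide gene, stayed at low levels (0.203 to 1.24 CPM) and rose by 2.49 ± 0.41. Of their receptors Npr3, which clears the peptides, fell by 0.95 ± 0.14, and Npr2 rose by 0.39 ± 0.08. Acta1, the skeletal muscle actin, rose from 32.3, 32.4 and 15.5 to 132, 203 and 52.9 CPM (2.20 ± 0.22, adjusted p = 1.39e-05). The sarcomere genes Myom1 (2.58 ± 0.26) and Neb (2.14 ± 0.21) and Lims2, an adaptor at integrin adhesions (2.21 ± 0.19), were among the genes with the largest rises. The skeletal muscle transcription factor genes Myod1, Myf5 and Pax7 had 0 counts in all 6 libraries, and Myog had 5 in siControl_IL17 and 7 in siIMP2_IL17 over 3 libraries each.

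Of 18 integrin subunit genes 7 rose and 1 fell. Itga5, which with Itgb1 forms the fibronectin receptor, rose from 1132 ± 540.0 to 2829.7 ± 1351 CPM (SD, n = 3), by 1.31 ± 0.08 (adjusted p = 4.75e-07), and Itgb1 by 0.39 ± 0.06. Itga1 (0.78), Itga11 (0.66), both parts of collagen receptors, Itga7 (0.96) and Itga8 (0.76) rose too. Itgb8, which forms a TGF-beta-activating integrin with the alpha-v chain, fell by 2.10 ± 0.48 (adjusted p = 0.00486).

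Of 14 tested markers of fibroblast identity 9 fell, 1 rose and 4 did not pass (median -0.44). Pdgfra, encoding the alpha receptor for platelet-derived growth factor, was at 18.9, 21.0 and 141 CPM in siControl_IL17 and at 4.38, 3.10 and 30.1 CPM in siIMP2_IL17. The RB160 libraries were the higher in both groups, and within each set the knockdown lay below the control, with -2.40 in NA and -2.22 in RB160. Pdgfra fell by 2.31 ± 0.11 (adjusted p = 9.01e-08). Dcn, encoding decorin, was at 10.2, 8.17 and 60.1 CPM in the controls and at 1.34, 0.878 and 9.50 CPM after knockdown. The RB160 libraries held far more decorin mRNA in both groups, and the fall was 2.83 ± 0.22 (adjusted p = 2.2e-06). Lum, encoding lumican, fell by 2.85 ± 0.39, and the mesenchymal transcription factors Prrx1 by 0.93 ± 0.07 (adjusted p = 1.75e-06) and Twist2 by 0.66 ± 0.08. Col1a1, the marker of highest level, rose by 0.33 ± 0.07. The abundant markers Vim (0.02), S100a4 (-0.01) and Ddr2 (0.06) did not pass. The summed level of the list, given below, overlapped between the groups. Among PDGF genes Pdgfrb fell by 0.50 ± 0.06 and the ligand Pdgfa rose by 0.57 ± 0.05.

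**Figure D3:**
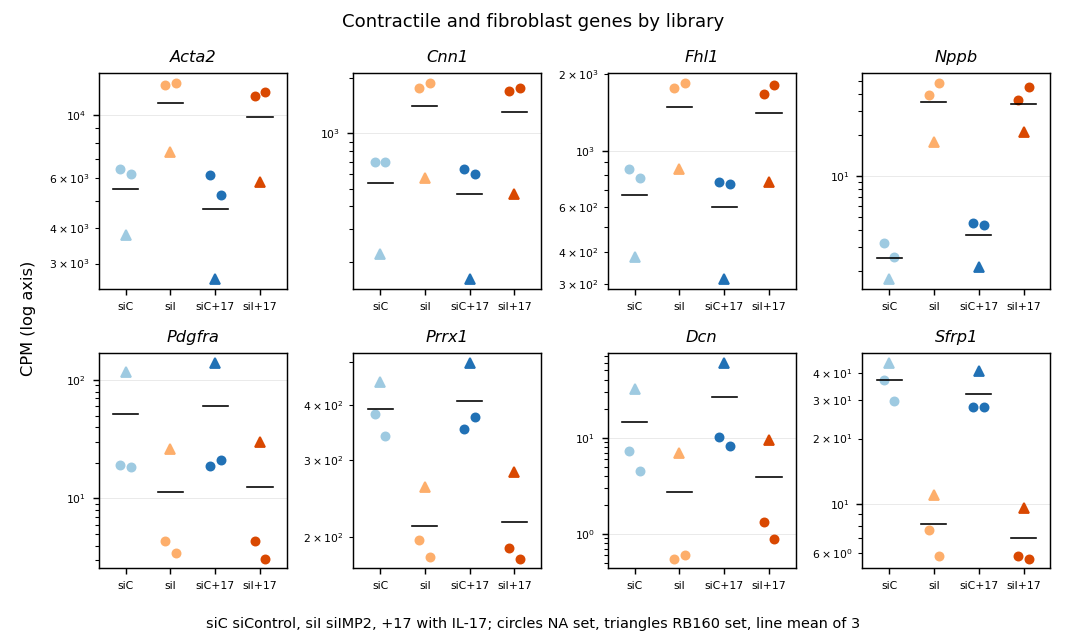
Level of 4 contractile or muscle genes (upper row) and 4 fibroblast genes (lower row) in each of the 12 libraries in CPM on a log axis. Circles are NA libraries, triangles RB160 libraries and lines means of 3. Within each title set and condition the IMP2 siRNA libraries lie above the controls in the upper row and below them in the lower row.

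Matrix genes split. Of 22 collagen chains 8 rose and 7 fell. The basement membrane chains Col4a1 (0.77 ± 0.07) and Col4a2 (0.76 ± 0.07) and the fibrillar chains Col5a1 (0.46 ± 0.09) and Col5a2 (0.34 ± 0.06) rose. Col3a1 (-0.85 ± 0.10), Col15a1 (-1.39 ± 0.17) and the partners Col6a1 (-0.65 ± 0.10) and Col6a2 (-0.72 ± 0.12) fell, while Col6a3, the remaining chain of classical collagen VI, rose by 0.60 ± 0.12 (adjusted p = 0.00153). Without siIMP2_IL17 replicate 3, 4 collagen chains fell. Of 10 small leucine-rich proteoglycans 4 fell and 2 rose. Prelp rose by 1.09 ± 0.13 and Bgn, biglycan, by 0.30 ± 0.05, against the falls of Dcn and Lum, and 2 proteoglycan genes fell without siIMP2_IL17 replicate 3.

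Among 23 matrix glycoproteins 7 rose and 7 fell. Thbs1, thrombospondin 1, rose by 0.70 ± 0.12, Fbln2 by 0.63 ± 0.08 and Fn1, fibronectin, by 0.31 ± 0.06 (adjusted p = 0.00189). Vcan, the proteoglycan versican, fell by 1.21 ± 0.15, Fbln1 by 0.85 ± 0.09, Spp1, osteopontin, by 1.00 ± 0.15, and Emilin2, an elastin-associated glycoprotein, by 1.00 ± 0.06 (adjusted p = 4.32e-07). Of 15 metalloproteinases and inhibitors 5 fell and 3 rose. Mmp9, the gelatinase B, fell from 10.7 ± 2.84 to 1.80 ± 0.204 CPM (SD, n = 3), by 2.52 ± 0.16, and Timp1, an inhibitor, by 0.72 ± 0.16. Mmp17, a membrane-anchored enzyme, rose from 2.71, 2.89 and 0.767 to 10.5, 12.2 and 3.27 CPM, by 2.03 ± 0.14 (adjusted p = 7.54e-07). Of 12 ADAMTS genes 6 fell, among them Adamts9 (-1.47 ± 0.30) and Adamts1 (-0.88 ± 0.11), and 2 rose, Adamts12 (1.70 ± 0.11) and Adamts6 (0.93 ± 0.08).

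Secreted WNT antagonists were lower, with 6 of 7 falling and 0 rising (median -1.79). Sfrp1 was at 27.9, 27.8 and 40.6 CPM in the controls and at 5.80, 5.64 and 9.63 CPM after knockdown, with every knockdown library below every control (-2.20 ± 0.11, adjusted p = 1.59e-07). Dkk2 fell by 1.79 ± 0.35 and Notum, an enzyme that inactivates WNT ligands, by 1.09 ± 0.19. Sfrp4 fell by 4.05 ± 0.53 from 82 counts in the 3 controls to 4 in the 3 knockdown libraries. In the NA libraries alone 3 of the 7 fell. Of 10 adipogenic genes 3 fell and 1 rose. Pparg, the master regulator of fat cell formation, was at 2.10, 1.98 and 11.4 CPM in the controls and 0.456, 0.376 and 2.58 CPM after knockdown. It was lower within both sets (-2.22 ± 0.16, adjusted p = 1.43e-06), and Fabp4 fell by 1.56 ± 0.34. The remaining fall was that of Cebpa, a call lost in 10 of the fits that left out 1 library. Klf5 rose by 0.48.

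TGF-beta signalling genes moved both ways, 5 of 18 up and 6 down. The receptor genes Tgfbr1 (-0.44 ± 0.08), Tgfbr2 (-0.31 ± 0.08) and Tgfbr3 (-0.90 ± 0.10) and Smad3 (-0.30 ± 0.07) fell. The ligand Tgfb2 (0.55 ± 0.12) and the inhibitory Smad7 (0.32 ± 0.08) rose. Of 14 immediate early genes 4 rose and 4 fell. Fos (-1.22 ± 0.17), Egr1 (-0.80 ± 0.12) and Egr3 (-1.54 ± 0.29) fell, and Maff rose by 0.45 ± 0.10. The number that rose was 2 without siControl_IL17 replicate 2 or siIMP2_IL17 replicate 2 or 3. Of 11 MAP kinase phosphatases 3 rose and 1 fell, with Dusp1 at 0.64 ± 0.08 (adjusted p = 5.58e-05).

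DNA replication genes were lower, with 15 of 20 falling and 0 rising (median -0.46). Mcm5, part of the replicative helicase, fell from 105 ± 32.3 to 66.6 ± 21.5 CPM (SD, n = 3), by 0.66 ± 0.11 (adjusted p = 0.000723), Tyms, thymidylate synthase, by 0.75 ± 0.10 and Cdc6, a licensing factor, by 0.79 ± 0.14. Mitosis genes had a like median of -0.41, but 6 of 18 fell, Ccnb2 by 0.70 ± 0.17 among them, and the count was unstable. It was 12 without siControl_IL17 replicate 1, 3 without siIMP2_IL17 replicate 3 and 2 without siControl_IL17 replicate 2 or siIMP2_IL17 replicate 1. Of 16 p53 targets 10 rose and 1 fell (median 0.34). Cdkn1a, encoding the cell cycle inhibitor p21, rose from 429.9, 395 and 188 to 608, 632 and 296 CPM, by 0.61 ± 0.05 (adjusted p = 5.52e-06), Pmaip1, encoding the death mediator NOXA, by 1.26 ± 0.09, and Gdf15, a secreted stress signal, by 1.00 ± 0.18. Trp53 did not pass (0.10 ± 0.06, adjusted p = 0.203).

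Of 20 genes of glycolysis and the hypoxia response 11 rose and 2 fell (median 0.27, NA 0.33, RB160 0.06). Egln3, an oxygen sensor gene, rose by 1.15 ± 0.15, Aldoa by 0.50 ± 0.07 and Gapdh by 0.48 ± 0.05, while Pdk1 fell by 0.72 ± 0.16. Of 18 stress genes of the unfolded protein and ATF4 responses 5 rose and 2 fell. The risers were the ATF4-linked Trib3 (1.23 ± 0.17), Chac1 (0.95 ± 0.18), Ddit3 and Atf4 (0.44 ± 0.08), together with Atf6 (0.44 ± 0.09), while the chaperone genes Calr (-0.44 ± 0.08) and Pdia3 (-0.61 ± 0.11) fell, with 4 genes falling when siIMP2_IL17 replicate 3 was left out. Of 19 cholesterol and lipid genes 2 rose and 4 fell. Nuclear oxidative phosphorylation genes (0 up, 1 down of 21), mitochondrially encoded genes (0 and 0 of 13) and ribosomal protein genes (3 up, 1 down of 25) had medians of 0.05, 0.02 and 0.01. Of the ribosomal genes 0 rose without siControl_IL17 replicate 2 or siIMP2_IL17 replicate 1 or 2, and 1 without siControl_IL17 replicate 3.

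**Figure D4:**
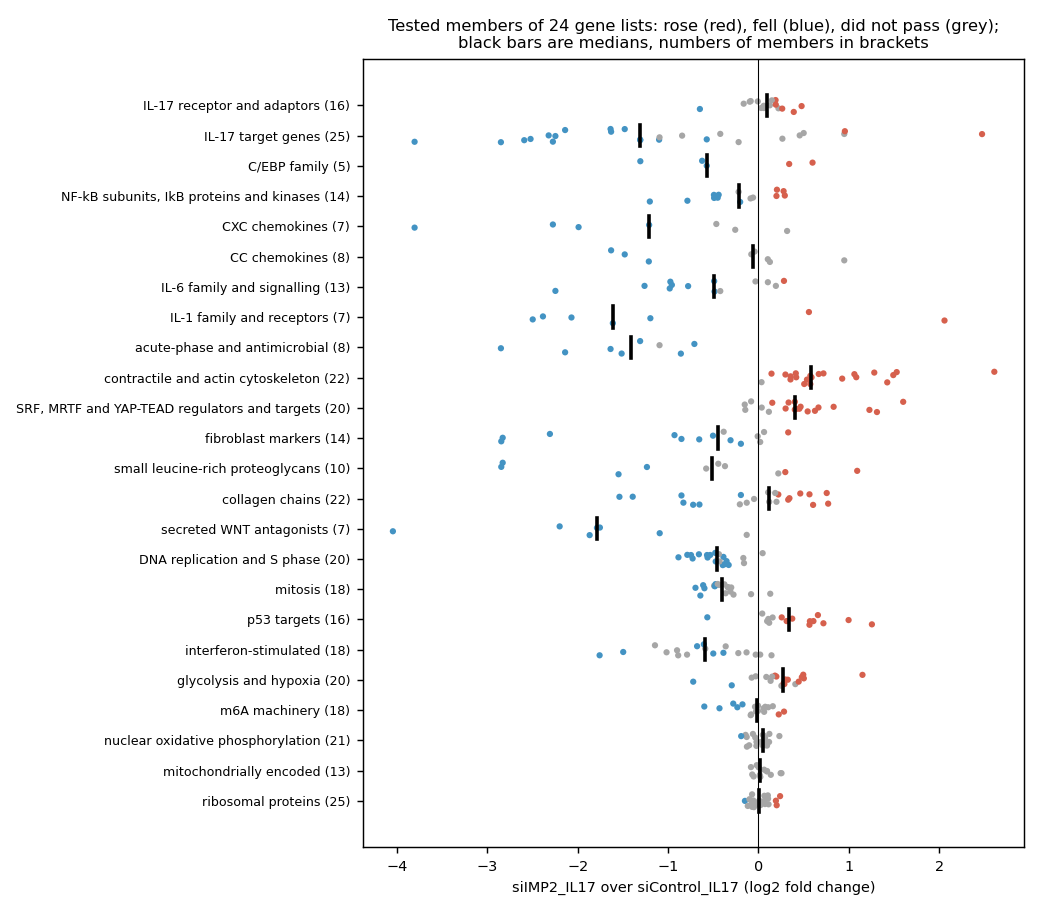
Log2 fold change of siIMP2_IL17 over siControl_IL17 (horizontal axis) for each tested member of 24 gene lists. Red points rose, blue points fell and grey points did not pass, black bars are medians and bracketed numbers are members tested. The contractile list lies to the right of 0 and the S-phase, acute-phase and WNT antagonist lists mostly to the left.

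Genes of RNA regulation changed by small amounts, and more of them fell than rose. The counts are to be read beside the 16.7% of all tested genes that rose and the 16.7% that fell. Of 17 RNA-binding regulators of inflammatory mRNA 6 fell and 0 rose, with Zfp36l1, which promotes decay of AU-rich mRNAs, at -0.53 ± 0.08 and Hnrnpd, encoding AUF1, at -0.32 ± 0.06. Elavl1, encoding the stabilising protein HuR, did not pass (0.03 ± 0.04, adjusted p = 0.699). Of 18 genes of the m6A machinery 5 fell and 2 rose (median -0.02). Mettl3, the catalytic subunit of the m6A writer, fell from 34.7, 32.6 and 33.3 to 22.3, 21.0 and 23.1 CPM, by 0.60 ± 0.07 (adjusted p = 6.33e-05). Fmr1, encoding a ribosome-associated RNA-binding protein that also binds m6A mRNAs, fell by 0.43 ± 0.08 (adjusted p = 0.00149), and 11 genes of this list did not pass.

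Of 9 mRNAs reported elsewhere as bound by IMP proteins 2 rose and 1 fell. Actb (0.35 ± 0.07) and Nras (0.30 ± 0.05) rose, and Myc (0.23 ± 0.11) and Igf2 (-0.45 ± 0.26) did not pass. Hmga2 was called lower (-0.68 ± 0.18, adjusted p = 0.0133), at -1.04 within NA but 0.02 within RB160, and lost the call without siControl_IL17 replicate 2, siIMP2_IL17 replicate 1 or siIMP2_IL17 replicate 2, with adjusted p up to 0.0727. In the insulin-like growth factor axis 4 of 14 rose and 3 fell. Igfbp5, a binding protein, fell by 1.66 ± 0.32 (adjusted p = 0.00171), Igfbp2 rose by 0.76 ± 0.09, and the receptor gene Igf1r rose by 0.32 ± 0.07. Without siIMP2_IL17 replicate 3, 5 genes of the axis fell.

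The genes with the smallest p in this contrast lay largely outside the inflammatory lists. Among those higher were Nppb, Cnn1 and Fhl1, already described, Siglecg, a sialic acid-binding receptor (2.12 ± 0.12), Edn1, the vasoconstrictor endothelin 1 (2.10 ± 0.13), Dnajb5, a heat shock cochaperone (1.18 ± 0.07), and Pkp2, a desmosomal plakophilin (0.84 ± 0.05). Edn1 was at 5.97, 6.45 and 1.99 CPM in the controls and at 23.1, 30.7 and 8.24 CPM after knockdown, and the knockdown libraries exceeded all controls. Lower were Car13, a carbonic anhydrase (-1.68 ± 0.08), Chmp3, a membrane-remodelling ESCRT subunit (-1.11 ± 0.06), Gas1, a hedgehog co-receptor (-2.11 ± 0.12), Nrg1, neuregulin 1 (-1.05 ± 0.06), Ndnf, a secreted neurotrophic factor (-1.99 ± 0.12), and Syt13, a synaptotagmin (-1.62 ± 0.10). Car13 was at 23.9, 25.8 and 40.9 CPM in the controls and at 7.99, 7.34 and 13.0 CPM after knockdown, far apart in both sets. The largest changes also took in Cobl, an actin nucleator, which rose by 2.94 ± 0.27, and Serpina3n, a protease inhibitor (-3.57 ± 0.61), and Penk, proenkephalin (-2.82 ± 0.18), which fell. Serpina3n was at 2.63, 1.87 and 33.0 CPM in the controls, with most of the signal in RB160, and at 0.334, 0.251 and 1.81 CPM after knockdown.

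The libraries carried the markers of fibroblasts, whose summed level was 16911 to 19266 CPM in siControl_IL17 and 18409 to 19518 CPM in siIMP2_IL17. Macrophage, endothelial and erythroid markers were low, and other lists had higher sums. Macrophage and leukocyte markers summed to 12.7 to 15.8 CPM in the controls and 9.54 to 11.7 CPM after knockdown, with 0 of 3 tested rising and 1 falling (Cd14) and with Adgre1, Fcgr1 and Cd3e at 0. Endothelial markers summed to 3.32 to 5.58 and 3.25 to 5.55 CPM, with 0 of 4 called and Tie1 and Cldn5 at 0. Epithelial markers summed to 37.9 to 113 CPM in the controls and 50.8 to 166 CPM after knockdown. In that list Krt8, Krt18 and Krt19 rose and Cdh1, encoding E-cadherin, fell, with Krt8 at 0.0613 and 0.429 CPM. Krt18 lost its call without siIMP2_IL17 replicate 1 (adjusted p = 0.054), and Cd14 lost its call without siControl_IL17 replicate 2 or 3 or siIMP2_IL17 replicate 1 or 2 (adjusted p up to 0.0798). Skeletal muscle markers summed to 16.6 to 38.0 CPM and 54.6 to 214 CPM, of which Acta1 held the greater part. Neural and glial markers summed to 315 to 904 and 425 to 951 CPM with 0 of 3 called. Chondrocyte and osteoblast markers summed to 207 to 699 and 176 to 422 CPM with 1 of 6 falling. Erythroid markers stayed at or below 0.18 CPM. The part of other cell types in the results was not tested.

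The same siRNA contrast in unstimulated cells, which shares no library with the one above, called 4505 genes (32.9%), 2212 higher (16.1%) and 2293 lower (16.7%). Of the genes that rose under IL-17, 1813 also rose without it, 79.2% of the IL-17 list and 82.0% of the unstimulated list. Of those that fell, 1845 fell in both, 80.5% of each list. No gene was called in opposite directions. Across all genes tested the Pearson correlation of the 2 effects was 0.834. Across the 11226 genes with a mean level of at least 1 log2 CPM it was 0.946. Both values are descriptions across genes, which are not independent replicates and share the model's title-set term.

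The test of the difference itself, whether the siRNA effect was another with IL-17 than without, called 0 of 13702 genes (0%) by edgeR, 0 by DESeq2 and 0 by limma-voom, with 152 genes (1.11%) at an unadjusted p below 0.05 by edgeR. The difference for Cxcl1 was 0.50 ± 0.31 (unadjusted p = 0.131, effects -2.27 with IL-17 and -2.77 without). For Il6 it was -0.35 ± 0.61, for Ccl2 0.50 ± 0.42 and for Cebpd 0.20 ± 0.35, with unadjusted p from the same edgeR fit of 0.568, 0.258 and 0.587. Cebpb was at -0.19 without and -0.57 with IL-17, a difference of -0.38 ± 0.17 (unadjusted p = 0.0465) that did not survive adjustment. Nppb rose by 3.77 without and 3.24 with IL-17, a difference of -0.53 ± 0.20 (unadjusted p = 0.0203). For C1qtnf1, a secreted C1q-related protein, the difference was -0.38 ± 0.12, and for Cdon, a cell surface hedgehog co-receptor, -0.30 ± 0.10 (unadjusted p = 0.00663 and 0.0113). A miss of the threshold does not show that the effects were equal.

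**Figure D5:**
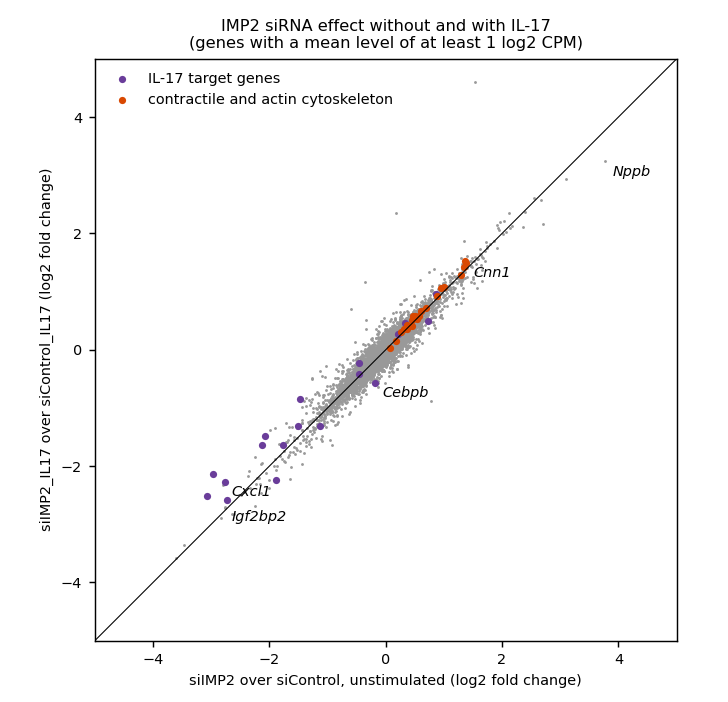
Log2 fold change of siIMP2_IL17 over siControl_IL17 (vertical axis) against that of siIMP2 over siControl (horizontal axis) for genes with a mean level of at least 1 log2 CPM. IL-17 targets are purple, contractile genes orange, and the line marks equal effects. Points follow the line, with Cebpb at -0.19 without and -0.57 with IL-17.

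The files also give total reads per gene, and those beyond the expression value used as the gene count made up 4.58% to 6.42% of gene reads in the 6 libraries. They are called reads outside exons here, with the expression value read as the exon count, which the headers do not state. They are not a pure intron measure, since 206 of 569 genes without introns also had some in siControl_IL17 replicate 1. Tested in the same way, 12463 genes gave 1335 calls (10.7%), 751 higher (6.03%) and 584 lower (4.69%), the latter 388 without siControl_IL17 replicate 2 and 380 by DESeq2. Of 2109 genes that had risen in exons and were tested here, 590 rose, 2 fell and 87.5% had the same sign. Of 1937 that had fallen, 410 fell, 7 rose and 84.1% had the same sign. Nppb (2.07), Edn1 (2.34) and Siglecg (1.86) rose and Gas1 (-1.91), Car13 (-1.33) and Nrg1 (-1.10) fell in these reads too.

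The siRNA target behaved otherwise: Igf2bp2 changed by -2.70 ± 0.15 in exons and by -0.27 ± 0.16 outside them, where it did not pass (adjusted p = 0.345). Chmp3, among the genes of smallest p in exons, was likewise -1.11 ± 0.06 in exons and 0.29 ± 0.11 outside them (adjusted p = 0.111). The values of the 2 readouts stand side by side, and the difference between them was not tested.

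The authors' deposited table holds their own comparison of these groups. In it 170 of the tested genes had an adjusted p below 0.05, 67 higher and 103 lower, and 169 of them were also called here, each with the same sign. All called genes had the same sign in the authors' deposited table. There Nppb was at 3.24 and Cxcl1 at -2.27 on the log2 scale, both called. Pdgfra, at -2.26, and Lcn2, at -2.35, had adjusted p of 0.354 and 0.548 in the authors' deposited table and were not called there.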

How the data were processed

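RNA was measured by sequencing in 12 bulk libraries of mouse embryonic fibroblasts, and the 6 IL-17-treated libraries are described. Per the file headers, each deposited file gives for every one of 48709 genes an expression value, the total gene reads and TPM, and the expression values are whole read counts, taken here as exon counts because they never exceed the total gene reads. The submitters' processing notes name the build mm10. Which aligner and counter were used, and whether strand was respected, is not given in the sources used here, so overlapping and antisense genes and near-identical copies are uncertain. The series' table also holds the authors' log2 fold changes and adjusted p-values as deposited, in which the control is called Mock, and 48 further per-sample columns that were not used.

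Counts were tested in R 4.3.3 by the quasi-likelihood method of edgeR 4.0.16, in 1 fit over 4 groups with the title set as a term (7 residual degrees of freedom). Genes passed filterByExpr (count minimum 10, total minimum 15), libraries were scaled by TMM, and p-values were adjusted by Benjamini-Hochberg with a threshold of 0.05. Standard errors are the absolute log2 fold change divided by the square root of F. Within-set values use a prior of 2 counts. Depth limits precision through counting error at low levels. On simulated counts for this contrast the fit recovered 69% of genes changed 1.5-fold (13620 genes) and 78% of those changed 2-fold (13602 genes). False calls made up 6.1% and 5.5% of the calls there. Only 200 genes were changed in each simulation, far fewer than were called in the data. Summaries were made in Python 3.11.15 (pandas 2.3.3) and plots in matplotlib 3.10.9. Alternatives used DESeq2 1.42.0, limma 3.58.1, other factors and filters, and left out each library.

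The 51 gene lists hold 751 entries, covering 708 distinct genes in the files, of which 603 passed the filter. They and the groups compared were chosen with earlier results of these data known. Genes were named by a rule, which began with a fixed panel. It added the 12 of smallest p and the 8 of largest change in each direction. These came from called genes with an established symbol and the same sign in both title sets, so that agreement was fixed by the choice. Their mean level was at least 1 log2 CPM for the smallest p and at least 2 for the largest change. The rule also took the 8 of smallest interaction p in each direction, and per list the 4 of smallest p and 2 of highest level. The text also names 48 list members outside the rule, chosen after their values were seen, and some genes that the rule picks are not reported here. Promoter windows come from RefSeq (GRCm38.p6) and were matched by symbol.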

Additional observations from a re-analysis of the deposited data

How the results depend on the processing

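The 4581 calls became 327 without the title-set term and 682 at a fold change of at least 2. In unstimulated cells 4505 calls became 321 and 652 by the same settings, and the 1335 calls in reads outside exons became 28 without the title-set term. DESeq2 gave 4491, limma-voom 4548, the NA libraries alone 4159 and the other factors, filters and fits 4385 to 4585 calls for IL-17-treated cells. Leaving out 1 library gave 3357 to 4804 calls in IL-17-treated cells, 3222 to 4690 in unstimulated cells and 902 to 1501 in reads outside exons, and 0 for the difference of the siRNA effects. The alternatives were followed for 190 of the named genes called. None of them changed direction in 22 alternatives. The call was kept by 183 in all alternatives but the fit without the title-set term, and by 39 there. Many were picked for a small p or large change in the same libraries, which favours such stability. Over all called genes, leaving out 1 library kept 71.6% to 99.1% of the calls. The exceptions among named genes were Cd14, Cebpa, Hmga2, Il17ra, Krt18, Lcn2 and Steap4. Among genes that did not pass, Mmp3 was at -0.84 by edgeR and 0.24 by DESeq2, and Il17rc was at 0.0023 in the NA libraries alone. Without 1 library Il17rc ranged from -0.192 to 0.0264, Myh10 from -0.0074 to 0.0886 and Zc3h12a from -0.0227 to 0.396; the cause was not tested.

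No paired analysis was possible because the labels give no replicate numbers that groups share; the title set is the only tie between libraries. The RB160 set holds 1 library a group, so changes seen there have no replicate of their own, and low counts limit genes such as Cxcl5 and Sfrp4.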

Other observations

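Several genes with large changes were not named above. Tnfsf11, an IL-17 target list member encoding the osteoclast-inducing cytokine RANKL, was at 11.3, 9.25 and 4.34 CPM in siControl_IL17 and at 1.76, 0.972 and 1.10 CPM in siIMP2_IL17, with every knockdown library below every control (-2.59 ± 0.41, edgeR adjusted p = 0.000376). Anpep, encoding the membrane peptidase CD13, was at 7.41, 6.48 and 23.4 CPM in the controls and at 0.972, 0.972 and 5.90 CPM after knockdown (-2.44 ± 0.21, edgeR adjusted p = 3.81e-06), most of it in the RB160 libraries of both groups. Slitrk6, a neuronal membrane protein, was at 12.8, 10.6 and 0.452 CPM and 1.98, 1.47 and 0.0883 CPM, most of it in the NA libraries (-2.72 ± 0.23, edgeR adjusted p = 4.43e-06). Ptprz1, a receptor phosphatase best known from glia, rose from 4.01, 3.30 and 1.24 to 15.5, 15.3 and 5.15 CPM (2.06 ± 0.13, edgeR adjusted p = 4.47e-07). Tspan2, a tetraspanin, rose by 1.17 ± 0.07, and Ankrd37, an ankyrin-repeat gene, by 2.37 ± 0.32. Ptpn13, a phosphatase of the protein tyrosine family, fell by 1.34 ± 0.07.

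In the control cells under IL-17 the title sets differed in level for several of these genes, as the Anpep, Slitrk6, Dcn and Pparg values show. The sign of the siRNA effect was the same in both sets for 72.5% of all genes tested.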
